A study of Mus musculus with 8 samples.

Results

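The genes described here are the enzymes that carry tryptophan along the kynurenine pathway to NAD. They were the 10 genes named Tdo2, Ido2, Afmid, Aadat, Kmo, Kynu, Haao, Acmsd, Qprt and Nadsyn1 on the array, and they had 12 of the 55594 non-control probes used, with 2 probes each for Kmo and Kynu. Of these 10 genes, 8 had a probe that stood well above background on 4 or more of the 8 arrays, and these entered the test of 23540 genes. Ido2 and Aadat were not well above background on any array. Liver RNA was measured in 4 knockout pups, which had inherited from the mother a chromosome deleted for the microRNA cluster that runs from miR-379 to miR-410, and in 4 wild-type littermates. All were on a C57BL/6J background, were delivered by caesarean at E19.5, kept warm and killed 4 h later, and no other treatment or allele is named in the labels. By the labels, each liver was hybridised to 1 single-colour Agilent array. Whether replicate 4 of either group is a separate pup is uncertain, as described below. The labels describe the deletion as maternally inherited and name no promoter or Cre that restricts it to a cell type. They do not give the sex or the litter of a pup.

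The liver breaks down most of the tryptophan that is not built into protein, and it does so along the kynurenine pathway. Tdo2, tryptophan dioxygenase, opens the indole ring and sets the pace of the pathway in hepatocytes. Its gene is induced by glucocorticoids, as is the gene of the tyrosine-degrading enzyme Tat, and in the rat both enzyme activities are low in the fetus and rise during postnatal development. Downstream, Afmid releases kynurenine, Kmo and Kynu turn it into hydroxyanthranilate, and Haao opens that ring to an unstable semialdehyde. The semialdehyde is either diverted by Acmsd towards complete oxidation or closes to quinolinate, which Qprt and Nadsyn1 take on to NAD.

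The deleted cluster is marked by the microRNAs that give it its name, which lie between chr12:109709065-109743784 on the plus strand (GRCm38.p6) in the imprinted Dlk1-Dio3 domain. Their mature sequences from RefSeq are shown because the labels name this cluster as deleted in the knockout group, with the seed, bases 2 to 8, in capitals. These 4 seeds differ from each other.
miR-379-5p: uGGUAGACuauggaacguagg
miR-379-3p: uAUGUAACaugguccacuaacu
miR-410-5p: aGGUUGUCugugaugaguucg
miR-410-3p: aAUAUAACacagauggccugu

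Promoter sequences from RefSeq (GRCm38.p6, 250 bases before to 50 after the annotated start) were found for 8 of the 10 genes. Those of Tdo2 and Kmo are shown because these genes had the largest differences, with all knockout arrays under all wild-type arrays. Capitals mark matches to the 6 motifs searched, all on both strands. For Tdo2 (chr3:81975679-81975978, minus strand) the matches were TATAAA, the core of a TATA box, at -229 to -224, and the reverse complement of GCGTG, the core of the aryl hydrocarbon receptor element, at -194 to -190. For Kmo (chr1:175631943-175632242, plus strand) they were the reverse complement of CAAAGT, an HNF4 core, at -136 to -131, and TGTTCT, one arm of the glucocorticoid element, at 15 to 20.
Tdo2 promoter: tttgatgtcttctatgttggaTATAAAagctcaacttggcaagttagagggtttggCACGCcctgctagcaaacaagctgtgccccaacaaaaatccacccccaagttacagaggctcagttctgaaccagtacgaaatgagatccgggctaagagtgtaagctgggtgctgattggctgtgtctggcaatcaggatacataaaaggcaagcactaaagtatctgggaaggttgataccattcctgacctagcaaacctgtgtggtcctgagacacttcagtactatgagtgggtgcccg
Kmo promoter: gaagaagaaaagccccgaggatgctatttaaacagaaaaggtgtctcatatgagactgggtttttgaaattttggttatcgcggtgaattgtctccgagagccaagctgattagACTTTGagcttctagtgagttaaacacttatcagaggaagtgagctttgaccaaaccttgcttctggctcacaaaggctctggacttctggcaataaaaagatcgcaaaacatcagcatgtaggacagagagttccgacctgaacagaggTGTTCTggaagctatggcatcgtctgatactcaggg

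The same letters are common among all 32851 promoters of that length. TATAAA was in 13.6% of them, GCGTG in 32.4%, CAAAGT in 14.4% and TGTTCT in 18.97%. TGTTCT and CAAAGT were each in 2 of the 8 promoters of the pathway, TATAAA in 1 and GCGTG in 3. None of the 6 motifs contains another. GTTAAT, an HNF1 core, was in 7.10% of all promoters and in 1 of the 8, that of Haao, and TTGCNNAA, a C/EBP site, in 10.8% and in none of the 8. A match describes the letters of the window and is not evidence of binding.

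Levels are given as log2 processed signal relative to the 75th percentile of the non-control probes on the same array, so 0 is a signal at that percentile. The percentile itself was a signal of 467 to 524 on the knockout arrays and 429 to 540 on the wild-type arrays. A difference is knockout minus wild-type, and its adjusted p comes from limma across all 23540 genes with Benjamini-Hochberg adjustment. Because levels of different probes on an array cannot be compared, no gene's level is set against another's. In whole liver, fewer cells of a type and less RNA per cell cannot be told apart.

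On each array, 58.6% to 66.2% of the non-control spots gave a signal well above background. Of the hepatocyte markers, 10 of 10 were measured. Their summed signal was 96.9 to 100.1% of the wild-type mean in knockout livers and 91.5 to 106.2% in wild-type livers. Being scaled to the wild-type mean, this sum compares the groups and does not test which tissue the RNA came from. Mirg, a noncoding RNA of the deleted region, checked the genotype and stood at 0.04, -0.08, -0.65 and -0.48 in knockout livers, against 2.37, 2.49, 2.40 and 2.40 in wild-type livers (difference -2.71, limma adjusted p = 0.000347, and 0.0210 on the 6 arrays without replicate 4). Its signal was reduced rather than absent, as the probe was well above background on 4 of 4 knockout arrays. Knockout 4 stood apart. There the Y-linked Ddx3y and Xist, the RNA that coats the silenced X in females, were both well above background. Xist stood at 0.11 in knockout 4, between knockout 2 (1.75) and knockout 3 (-6.55). Ddx3y stood at 2.06, also between knockout 2 (-7.22) and knockout 3 (2.55). Over 22641 genes, with X and Y genes left out, that array was closest to a sum of 0.36 of knockout 2 and 0.64 of knockout 3. The root mean square error of that sum was 0.20 log2, the lowest when each of the 8 arrays was fitted from the other 3 of its group. Wild-type 4 was closest to 0.43 of wild-type 2 plus 0.50 of wild-type 3 and 0.07 of wild-type 1, with an error of 0.26. Knockout 3 had an error of 0.25, but its fit put 0.96 of the weight on knockout 4, so it is no benchmark for a separate array. The other 5 arrays had errors of 0.29 to 0.42. Over the 8 measured pathway genes, which the fit did not use, the median error was lowest in wild-type 4 (0.038), against 0.055 to 0.19 on the other arrays. Ddx3y in wild-type 4 (1.65) lay between wild-type 3 (-7.42) and wild-type 1 and 2 (2.47 and 2.45). With signals of both sexes, knockout 4 cannot be counted with confidence as a separate pup. Wild-type 4 also lay between other wild-type livers in its pancreas markers, which the fit left out. Their summed signal there was 111.9% of the wild-type mean, against 33.5% in wild-type 2, 46.0% in wild-type 1 and 208.7% in wild-type 3. Whether wild-type 4 is independent of the other arrays is therefore not established. Results are therefore also given for the 6 arrays without replicate 4, 3 per group. Xist was above background in knockout 1, 2 and 4 and in no wild-type liver, Ddx3y in knockout 3 and 4 and in wild-type 1, 2 and 4, and wild-type 3 had neither. By these markers female RNA was found only in the knockout group, so sex and genotype are largely confounded. With Xist as a covariate the differences were -1.85 for Tdo2, -0.73 for Kmo and -0.38 for Acmsd (limma adjusted p = 0.190, 0.237 and 0.453). The arrays shared 1 slide and 1 scan, with each genotype in a column of its own, so genotype and position on the slide cannot be told apart.

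None of the 8 measured pathway genes passed the adjusted threshold of 0.05 in limma, which 0.208% of all genes did (42 genes or 0.178% lower and 7 genes or 0.0297% higher in knockout livers). The mean was lower in knockout livers for 7 of 8, against 45.2% of all genes, and 4 of 8 had an unadjusted p under 0.05, against 13.0% of all genes. In 3 of 8, Tdo2, Kmo and Acmsd, every knockout array lay under every wild-type array, which held for 4.81% of all genes, and in none did every knockout array lie above, which held for 4.13% of all genes. The median difference was -0.16 over the 8 genes and 0.02 over all genes. Without replicate 4, limma passed 0 of 8 (0.0212% of all genes), and 2 of 8 had an unadjusted p under 0.05 (7.39% of all genes). On these 6 arrays 7 of 8 had a lower mean (45.9% of all genes), 4 of 8 had all knockout arrays under all wild-type arrays (6.67% of all genes) and 0 had them all above (6.71%), and the median difference was -0.21. The genes were grouped for their place in a pathway, after results of these data were known, and the counts describe them without a test of the group.

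Tdo2, the entry enzyme, had the largest difference of the 8. Its probe lies at chr3:81767918-81770928 on the minus strand (mm9), 60 bases aligned over 3011, so it crosses an intron and reads spliced RNA. It is shown here because the largest value rests on it alone.
Tdo2 probe: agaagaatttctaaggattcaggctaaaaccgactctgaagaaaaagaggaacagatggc

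Tdo2 stood at -4.30, -3.70, -4.35 and -4.03 in knockout livers, against -2.69, -2.004, -3.31 and -2.29 in wild-type livers. As unscaled processed signals these were 25.0, 40.2, 24.2 and 28.6 in knockout livers and 83.9, 106.9, 45.3 and 91.2 in wild-type livers. All 4 knockout livers were lower than all 4 wild-type livers, and wild-type 3 was nearest to the knockout range. The means were -4.10 ± 0.30 in knockout and -2.57 ± 0.57 in wild-type livers (SD, n = 4 each). The difference was -1.52 (SE 0.28), which puts knockout livers at 34.8% of wild-type with a 95% interval of 22.5 to 53.8%. Only 70 of the 23540 genes had a lower difference, yet with the spread of the wild-type livers the limma adjusted p was 0.0790. A two-sided exact permutation test gave p = 0.0286, the smallest that 70 assignments allow. Any gene whose groups do not overlap has this value, so it adds nothing to the separation. On 6 arrays the difference was -1.45, with a limma adjusted p of 0.513 and an exact permutation p of 0.1.

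The size of the Tdo2 difference depended on how background was handled, more than for any other pathway gene. It was -0.997 on the median signal without background correction and -0.99 in the authors' deposited value table, where it passed (limma adjusted p = 0.0444 and 0.0425), and -0.77 after normexp and -0.74 after normexp with quantile normalization, where it did not. Over 24 alternatives it was lower in knockout livers in 24, from -1.85 to -0.74, and it passed in 5, with limma adjusted p from 0.00717 to 0.513. Besides the 2 above, it passed with a trended and robust variance (0.0354), with array weights (0.00717) and without wild-type 3, its lowest wild-type array (-1.77, 0.0466).

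Ido2, an indoleamine dioxygenase that opens the same ring, was dim on every array. Its processed signals were 3.80, 3.99, 4.55 and 3.00 in knockout livers and 3.92, 3.78, 6.72 and 5.53 in wild-type livers, none of them well above background, so no difference is given. Afmid, the formamidase that releases kynurenine from the product of Tdo2, was at 1.57, 1.48, 1.09 and 1.24 in knockout livers and at 1.35, 1.46, 1.44 and 1.45 in wild-type livers. The groups overlapped, and the spread was wider in knockout livers (SD 0.22, against 0.05 in wild-type livers). The Afmid difference of -0.07 (SE 0.11) had a limma adjusted p of 0.791, and its sign depended on knockout 3 (0.01 without it). The lower Afmid values were those of knockout 3 and 4, the knockout arrays with Ddx3y. With Ddx3y as a covariate the Afmid difference was -0.12 and with Xist -0.39 (limma adjusted p = 0.550 and 0.273).

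**Figure D1:**
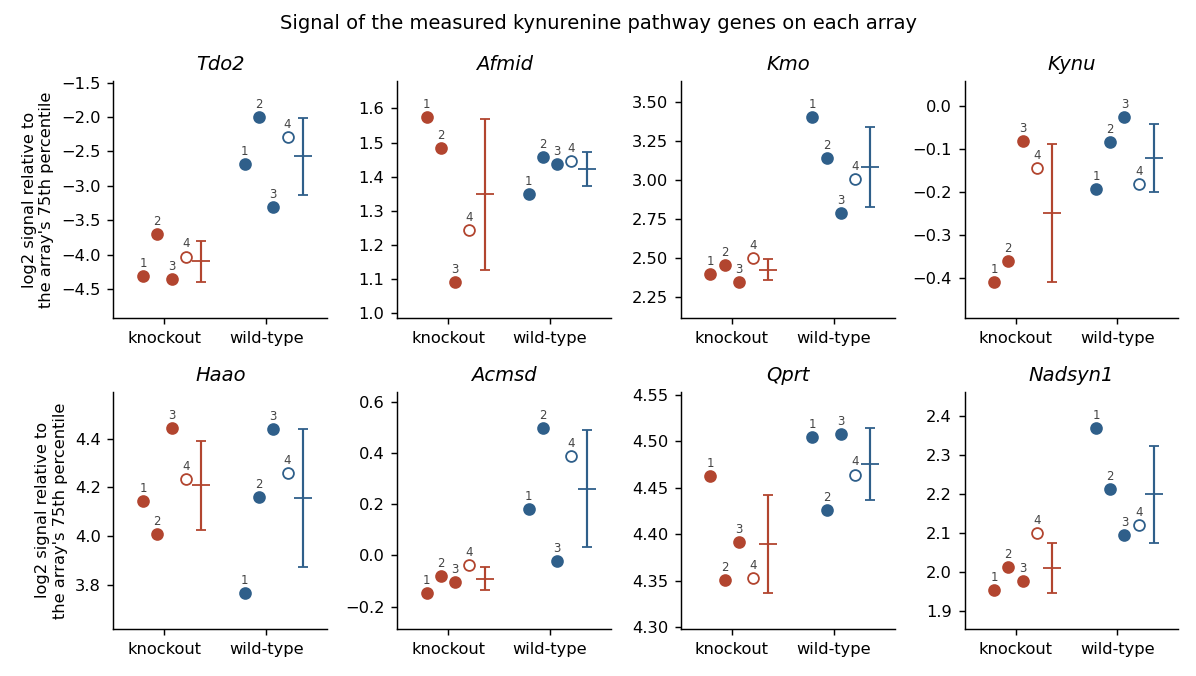
Log2 signal of the 8 measured kynurenine pathway genes relative to the array's 75th percentile (vertical axes, scaled for each gene), in knockout livers on the left and wild-type livers on the right. Points are single arrays with their replicate number, open for replicate 4, and bars are the mean ± SD (n = 4); the knockout points of Tdo2, Kmo and Acmsd lie under all their wild-type points.

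Kmo, the flavin-dependent hydroxylase of the mitochondrial outer membrane that acts on kynurenine, was measured by a pair of probes that did not disagree. Its brighter probe (chr1:177590673-177590732, plus strand, mm9) stood at 2.40, 2.46, 2.35 and 2.50 in knockout livers, against 3.40, 3.14, 2.79 and 3.01 in wild-type livers. The knockout livers lay within a narrow band and all were under the lowest wild-type liver, which was again wild-type 3. The means were 2.43 ± 0.07 in knockout and 3.08 ± 0.26 in wild-type livers (SD, n = 4 each). The difference was -0.66 (SE 0.12), or 63.4% of wild-type with a 95% interval of 52.0 to 77.2%, and the limma adjusted p was 0.0870. The two-sided exact permutation p was 0.0286, the smallest possible. The 6 arrays gave -0.71, with a limma adjusted p of 0.503 and an exact permutation p of 0.1.

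The second Kmo probe (chr1:177590341-177590400) also separated the groups, at 0.16, 0.34, 0.32 and 0.20 in knockout livers and 1.28, 1.05, 0.68 and 0.86 in wild-type livers. Its difference was -0.72, with a limma adjusted p of 0.0846 over the 33769 kept probes, of which 0.207% passed. The Kmo difference was lower in knockout livers under 24 of 24 alternatives, from -0.84 to -0.54, and passed the threshold in 5, with limma adjusted p from 0.00912 to 0.503. These were the median signal (0.0470), the deposited table (0.0326), normexp with quantile normalization (0.0412), the trended and robust variance (0.0335) and array weights (0.00912).

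Aadat, which turns kynurenine into kynurenate on a side branch, was not well above background in any liver, with signals of 4.73, 3.39, 2.96 and 9.17 in knockout livers and 12.5, 3.19, 2.49 and 4.92 in wild-type livers. Kynu, the vitamin B6-dependent kynureninase, was at -0.41, -0.36, -0.08 and -0.14 in knockout livers and -0.19, -0.08, -0.03 and -0.18 in wild-type livers. Knockout 1 and 2 were the lowest arrays, and knockout 3 and 4 lay inside the wild-type range. The difference was -0.13 (SE 0.09, limma adjusted p = 0.574), its 95% interval ran from -0.34 to 0.09, and the second Kynu probe gave -0.18.

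Haao, which opens the ring of hydroxyanthranilate, was at 4.14, 4.01, 4.44 and 4.24 in knockout livers and 3.77, 4.16, 4.44 and 4.26 in wild-type livers. It was the 1 measured gene with a higher mean in knockout livers, by 0.05 (SE 0.15, limma adjusted p = 0.903). The groups overlapped over most of their range and the sign depended on wild-type 1 (-0.08 without it) and on knockout 3 (-0.03 without it). The 95% interval was wide, from 81.3 to 132.0% of wild-type.

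Acmsd, the decarboxylase that draws the semialdehyde away from quinolinate, was at -0.15, -0.08, -0.10 and -0.04 in knockout livers, against 0.18, 0.50, -0.02 and 0.39 in wild-type livers. The groups did not overlap, but knockout 4 and wild-type 3 nearly met. The difference was -0.35 (SE 0.11, 78.3% of wild-type), with a limma adjusted p of 0.244 and a two-sided exact permutation p of 0.0286. On 6 arrays it was -0.33, with an exact permutation p of 0.1. It passed with array weights (-0.38, limma adjusted p = 0.0334), a fit that gave the replicate 4 arrays weights of 4.07 (knockout) and 3.64 (wild-type) and the others 0.219 to 1.17, and in none of the other alternatives, where the limma adjusted p reached 0.704.

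Qprt, which takes quinolinate into the NAD branch, was at 4.46, 4.35, 4.39 and 4.35 in knockout livers and 4.505, 4.43, 4.51 and 4.46 in wild-type livers. Its spread was small in both groups (SD 0.05 in knockout and 0.04 in wild-type livers), and knockout 1 lay inside the wild-type range. The difference was -0.09 (SE 0.06, limma adjusted p = 0.565), and its 95% interval reached from 85.4 to 103.9% of wild-type. Nadsyn1, the synthetase that makes NAD from its nicotinate form, was at 1.95, 2.01, 1.98 and 2.10 in knockout livers and 2.37, 2.21, 2.09 and 2.12 in wild-type livers. Only knockout 4 and wild-type 3 overlapped. The difference was -0.19 (SE 0.08, 87.8% of wild-type, limma adjusted p = 0.376), and without replicate 4 the groups separated at a difference of -0.24 (limma adjusted p = 0.695).

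**Figure D2:**
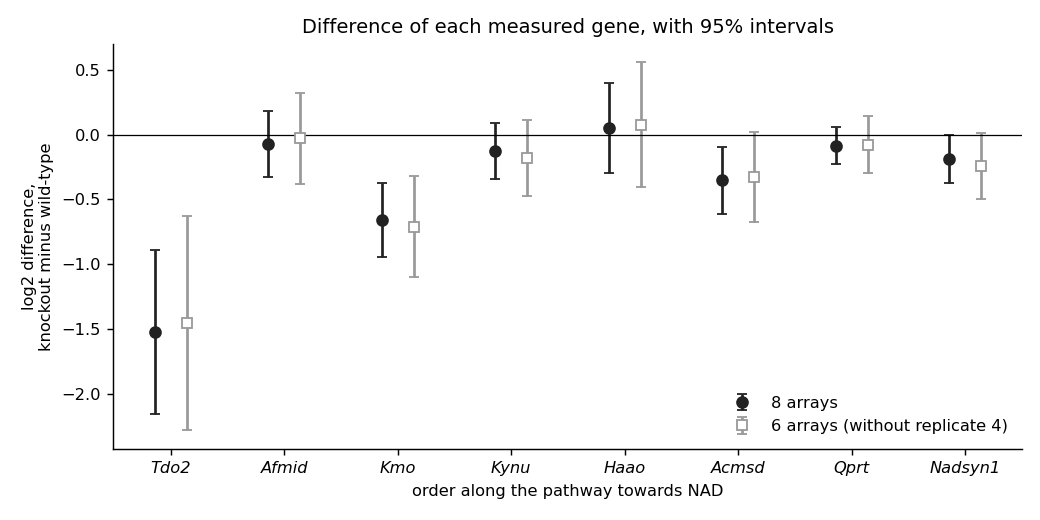
Log2 difference, knockout minus wild-type, of the 8 measured genes in their order along the pathway towards NAD, with 95% intervals from limma. Filled circles use 8 arrays and open squares the 6 arrays without replicate 4; Tdo2 at -1.52 and Kmo at -0.66 lie lowest and Haao at 0.05 is the 1 value above 0.

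Wild-type 3 was the lowest wild-type array for Tdo2, Kmo, Acmsd and Nadsyn1. It was also the array with the most signal of pancreas markers. Summed over the 10 of 14 markers measured, that signal was 21.5 to 33.6% of the wild-type mean in knockout livers, against 208.7% in wild-type 3 and 33.5 to 111.9% in the other wild-type livers. Of those 10 markers 8 had a lower mean in knockout livers, and Prss2, Cela2a, Pnlip and Gcg were not well above background on enough arrays. With wild-type 3 and 4 left out, the differences were -1.75 for Tdo2, -0.84 for Kmo, -0.43 for Acmsd and -0.28 for Nadsyn1, and none passed. Each was lower than on 8 arrays. Leaving out the lowest wild-type array of a gene must lower its difference, so this direction says nothing about the pancreas signal. Markers of stellate cells and fibroblasts moved with genotype: 9 of 9 had a lower mean in knockout livers, and their summed signal was 71.2 to 85.4% of the wild-type mean in knockout livers and 94.7 to 106.7% in wild-type livers. Erythroid markers had a higher mean in knockout livers in 9 of 10 (median 0.28), with a summed signal of 107.7 to 114.0% in knockout livers and 75.1 to 113.1% in wild-type livers. Cholangiocyte markers had a lower mean in 6 of 6 (85.0 to 99.8% in knockout livers and 93.0 to 109.0% in wild-type livers) and endothelial markers in 7 of 8 (84.7 to 97.7% in knockout livers and 87.4 to 131.3% in wild-type livers). Macrophage and lymphocyte markers had a lower mean in 7 of 10 each, as did hepatocyte markers, and the summed signals of these 6 lists, from erythroid to hepatocyte, overlapped between the groups. None of the measured markers of the 8 cell type lists, pancreas and stellate included, passed the adjusted threshold in limma on 8 arrays. At an unadjusted p under 0.05, 7 of 9 stellate and fibroblast markers were lower (6.93% of all genes), and of the 10 erythroid markers 2 were higher and 1 was lower (6.11% and 6.93% of all genes). Of 10 pancreas markers 5 were lower and 1 was higher, and of 10 lymphocyte markers 2 were lower. Among macrophage, endothelial and cholangiocyte markers 1 each was lower, and 1 hepatocyte marker was higher. The part of these markers in the pathway differences was not tested.

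**Figure D3:**
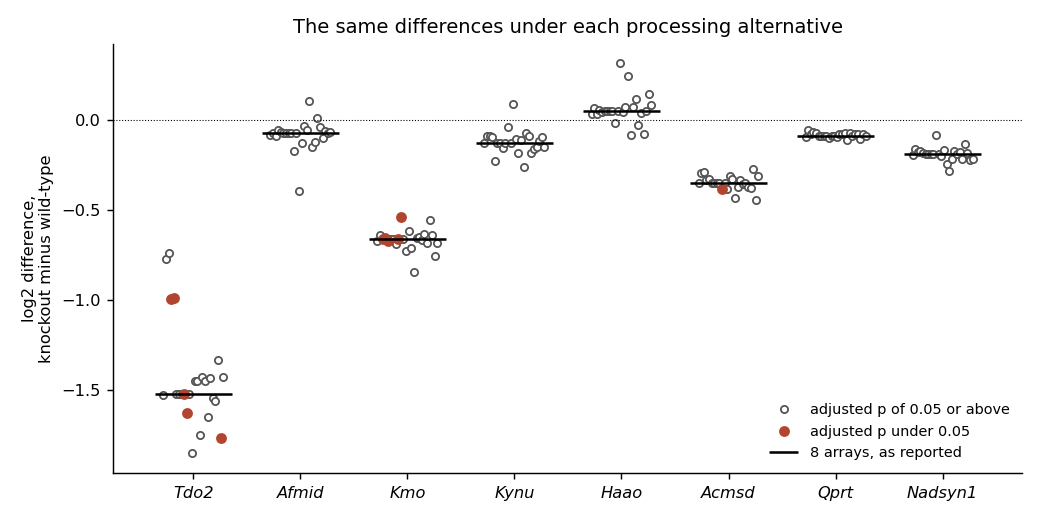
Log2 difference, knockout minus wild-type, of each measured pathway gene under the 24 processing alternatives, with 1 point per alternative and a line at the value on 8 arrays. Filled points passed a limma adjusted p of 0.05; they occur for Tdo2 (5), Kmo (5) and Acmsd (1), and Tdo2 spreads from -1.85 to -0.74.

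Genes around the pathway were taken from 9 lists, also chosen with results of these data known, and 0 genes of any list passed the adjusted threshold in limma on 8 arrays. For reading the counts that follow, 45.2% of all genes had a lower mean in knockout livers, 6.93% were lower at an unadjusted p under 0.05 and 6.11% were higher. Of the 7 measured genes of tryptophan uptake, 3 had a lower mean in knockout livers and 4 a higher one (median 0.05), with 1 lower and 0 higher at an unadjusted p under 0.05. The transporter of aromatic amino acids Slc16a10 differed by 0.28 and the large neutral amino acid transporter Slc7a5 by 0.24, with limma adjusted p of 0.506 and 0.514.

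The other enzymes of the kynurenine branch had a lower mean in knockout livers in 7 of 8 (median -0.23), and 4 of 8 were lower at an unadjusted p under 0.05, against 6.93% of all genes. Il4i1, an amino acid oxidase that acts on aromatic amino acids, differed by -0.45 (SE 0.13, limma adjusted p = 0.214). Kyat3, a kynurenine aminotransferase, differed by -0.40 (adjusted p = 0.264) and Gcdh, the dehydrogenase of glutaryl-CoA further down the oxidative route, by -0.35 (adjusted p = 0.276). The groups did not overlap for Il4i1 and Gcdh. Ido1, the dioxygenase of immune cells, was not well above background on enough arrays to be tested.

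Of 12 genes on other routes to NAD, 7 were lower and 5 higher (median -0.05), with 1 at an unadjusted p under 0.05. That one was Nampt, the rate-limiting enzyme of NAD salvage from nicotinamide, at 2.99, 3.24, 3.44 and 3.36 in knockout livers and 3.67, 3.93, 3.48 and 3.68 in wild-type livers (difference -0.43, SE 0.13, limma adjusted p = 0.209). Its groups did not overlap, with knockout 3 next to wild-type 3. Nmnat1, the adenylyltransferase shared by these routes, differed by -0.13 and the mitochondrial NAD carrier Slc25a51 by 0.35 (adjusted p = 0.410 and 0.413). The groups did not overlap for either gene, with Nmnat1 lower and Slc25a51 higher on all knockout arrays. Among 13 genes that use NAD or nicotinamide, 5 were lower and 8 higher (median 0.01), and 2 were lower at an unadjusted p under 0.05. The interferon-inducible ADP-ribosyltransferase Parp14 differed by -0.67 (SE 0.15, limma adjusted p = 0.125, no overlap), the mitochondrial deacylase Sirt3 by -0.31 (0.245) and the transhydrogenase Nnt by 0.38 (0.393).

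The serotonin and indole branch had 5 lower and 4 higher of 9 measured (median -0.02), with 1 lower at an unadjusted p under 0.05. Ddc, the decarboxylase that makes serotonin, differed by -0.26 (limma adjusted p = 0.359), the serotonin transporter Slc6a4 by -0.21 and Aanat by 0.19 (0.545 and 0.568). Tph1 and Tph2, the hydroxylases that start this branch, were too dim to be tested. Kynurenine and its products are ligands of the aryl hydrocarbon receptor, and of 8 measured genes of that receptor and its targets 4 were lower and 4 higher (median 0.04), with 1 higher at an unadjusted p under 0.05. Tiparp, a target that represses the receptor, was at 2.52, 2.49, 2.90 and 2.78 in knockout livers and 2.34, 2.34, 2.42 and 2.29 in wild-type livers (difference 0.32, SE 0.10, limma adjusted p = 0.241, no overlap). Cyp1b1 differed by -0.43 and the partner subunit Arnt by 0.11 (0.503 and 0.556), and Cyp1a1 and Cyp1a2 were not tested. Among the 6 genes of the vitamin B6 and flavin cofactors that Kynu and Kmo need, 4 were lower and 2 higher (median -0.03), with 1 higher at an unadjusted p under 0.05. The pyridoxal kinase Pdxk differed by -0.13 and the FAD synthetase Flad1 by -0.05 (limma adjusted p = 0.544 and 0.804).

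Tat, which starts tyrosine breakdown, had the largest difference among the genes named from these lists. It stood at 5.12, 5.62, 4.88 and 5.09 in knockout livers, against 6.39, 6.48, 6.05 and 6.19 in wild-type livers, with no overlap. The difference was -1.10 (SE 0.16, 46.7% of wild-type), with a limma adjusted p of 0.0517 on 8 arrays and 0.451 on 6. It passed under 9 of 24 alternatives, quantile normalization (0.0472) and the deposited table (0.0190) among them, with limma adjusted p from 0.00287 to 0.451 over all of them. Of the 10 glucocorticoid-responsive genes, Tat included, 7 were lower and 3 higher (median -0.14), with 4 lower and 1 higher at an unadjusted p under 0.05 (6.93% and 6.11% of all genes). The glucocorticoid-induced leucine zipper Tsc22d3 differed by -0.38 and the gluconeogenic enzyme Pck1 by -0.44 (limma adjusted p = 0.137 and 0.142), both without overlap of the groups. Sds differed by -0.73 and Dusp1 by 0.63 (limma adjusted p = 0.314 each), both with overlap. The rest overlapped too, with Sgk1 at -0.23, Nr3c1 at 0.12, Per1 at 0.09, Zbtb16 at -0.04 and Fkbp5 at -0.02 (limma adjusted p from 0.427 to 0.954).

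Among 19 other enzymes of amino acid breakdown and the urea cycle, 18 had a lower mean in knockout livers, against 45.2% of all genes, with a median of -0.21 and 6 lower at an unadjusted p under 0.05 (6.93% of all genes). The enzymes of tyrosine breakdown Hpd and Hgd differed by -0.36 and -0.29 (limma adjusted p = 0.259 and 0.293), and the groups overlapped for each.

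**Figure D4:**
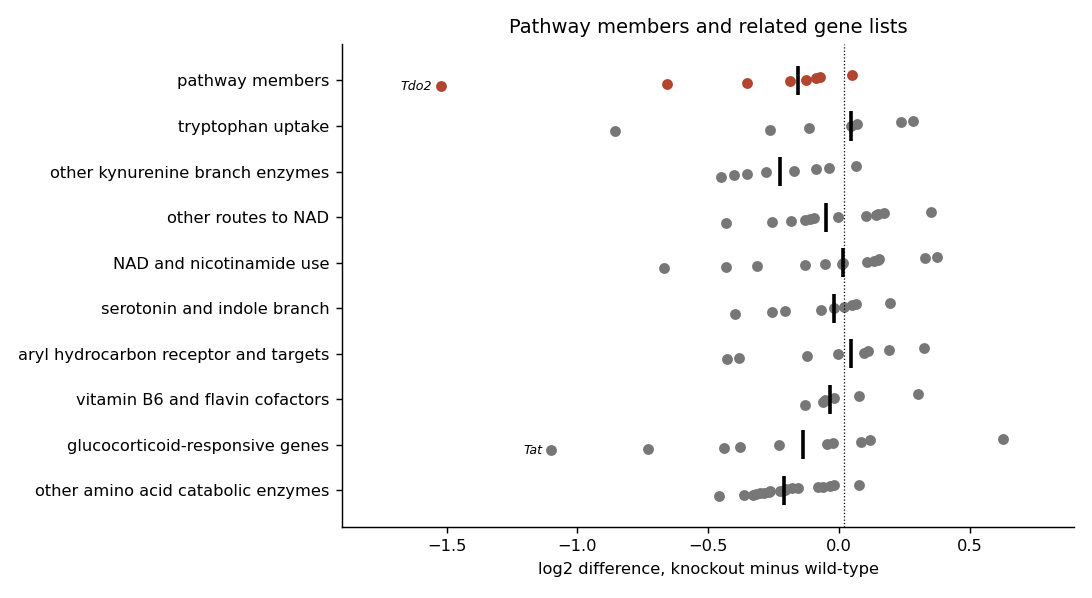
Log2 differences, knockout minus wild-type, of the measured genes of the pathway and of the 9 related lists, with 1 point per gene, a bar at each list's median and a dotted line at the median of all genes (0.02). Tdo2 and Tat, the lowest points of their rows, are named; medians run from -0.23 for other kynurenine branch enzymes to 0.05 for tryptophan uptake.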

How the data were processed

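Total RNA of 8 livers was labelled with Cy3 and hybridised to 8 arrays, per the labels. The authors deposited Agilent Feature Extraction 10.10 output, per the submitters' processing notes, which gives each spot's intensity on a linear scale, with 62976 spots per array. A deposited value table of 27084 probes gives log2 values. Column by column these tracked the log2 median signal of the scanner files (r from 0.99995 to 0.999994), with medians of 8.84 to 8.86, so genes were not centred; the authors' normalization is not given in the sources used here. The notes also name limma. Probe coordinates are on mm9, per the file headers.

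From these files, control and outlier-flagged spots were left out, spots of a probe were averaged, and 87 probes without an unflagged spot on some array were dropped. Log2 processed signals were set relative to the 75th percentile of their array. A probe was kept if well above background on at least 4 of 8 arrays, and a gene was its kept probe with the highest mean. No spot was saturated. Names were assigned through RefSeq accessions (GRCm38.p6) for 27199 of the 55594 probes used and through a synonym for 564. The test was limma 3.58.1 under R 4.3.3 (lmFit, then eBayes), two-sided, with 8 arrays and no covariate; p-values were adjusted over 23540 genes by Benjamini-Hochberg and the threshold was 0.05. The procedure was tested on simulated data. Precision is limited by the number of arrays: over all genes, 95% intervals extended a median of 0.26 to each side of the difference.

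All 10 pathway genes and all 10 glucocorticoid-responsive genes are named. Of each other related list, any gene past the threshold and the 3 with the smallest p are named. Mirg, Xist and Ddx3y were checks. A few genes that this rule names are not reported here. The members and lists were chosen with earlier results of these data known. Over all genes, same-numbered replicates did not deviate together (correlation of deviations from -0.11 to 0.07), so the main test used no pairing. Same-numbered arrays shared a row of the slide, and correlations over all genes cannot show whether single genes are paired by number. The alternatives were the scaling, background correction, signal column, source table, filter, probe rule, variance model, sex covariates, replicate number and arrays left out. Replicate 4 of each group is treated as independent in the 8-array p-values, which are too small if it is not.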

Additional observations from a re-analysis of the deposited data

Results flagged for a closer look

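Within groups of 4, a single array lay far from the other 3 in 4 of 70 groups of values checked, where chance alone gives about 1 in 20. Slc7a5, the large neutral amino acid transporter, was at 0.57 in wild-type 1, with the other wild-type livers at 1.14 to 1.21. Nnt, the mitochondrial transhydrogenase, was at 3.09 in knockout 3, with the other knockout livers at 2.92 to 2.94. Aanat, an acetyltransferase of the serotonin branch, was at -1.53 in wild-type 1, with the others at -0.95 to -0.88. Arnt, the partner of the aryl hydrocarbon receptor, was at 2.12 in wild-type 3, with the others at 2.05 to 2.06. None of the 8 measured kynurenine pathway genes had such an array.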

How the results depend on the processing

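The counts of genes past the threshold, 42 lower and 7 higher in knockout livers, moved with nearly every setting (lower, then higher): quantile normalization 66 and 14, normexp 118 and 14, normexp with quantile normalization 124 and 25, median signal 112 and 15, the authors' deposited values 123 and 20, the filter on all 8 arrays 74 and 9, no filter 20 and 0, the trended and robust variance 128 and 28, array weights 1664 and 1560, Xist as a covariate 11 and 3, Ddx3y as a covariate 80 and 12, without replicate 4 of both groups 5 and 0, without wild-type 3 and 4 11 and 2, without knockout 3 and 4 9 and 3, an adjusted p under 0.01 17 and 0, and an adjusted p under 0.1 167 and 52. With single arrays left out, lower genes numbered 14 to 75 and higher genes 0 to 23. The causes were not tested. With the replicate number as a block (replicate block), 17 genes were lower and 2 higher. Tdo2 stayed at -1.52 (SE 0.14, limma adjusted p = 0.0565) and Kmo at -0.66 (SE 0.12, limma adjusted p = 0.177). The labels do not give litters, so whether the numbers pair the samples is not known. Of the pathway genes' alternatives, 184 kept direction and call, 11 newly passed and 7 changed sign; of those of related genes, 615, 25 and 6. The sign changes were all of values that did not pass. Afmid was 0.11 without knockout 3 and 4 and 0.0119 without knockout 3 (leaving out 1 array, -0.15 to 0.0119). Haao was -0.0149 with array weights, -0.0808 without knockout 3 and 4, -0.0277 without knockout 3 and -0.0790 without wild-type 1 (leaving out 1 array, -0.0790 to 0.15). With Xist as a covariate, Kynu was 0.0920, Slc6a4 0.15 and Pdxk 0.0120. Pdxk was 0.17 as the median of its probes, Cyp1b1 0.0164 without knockout 3 and 4, and Flad1 0.0064 without wild-type 3 and 4 and 0.0537 without knockout 3 and 4. The deposited table held fewer genes, and dim probes such as that of Tdo2 are limited by signal over background.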
